A study of Mus musculus with 33 samples.

Results

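The 10 Sox genes described here are Sox1, Sox2, Sox4, Sox5, Sox6, Sox8, Sox9, Sox10, Sox11 and Sox21, which were taken by symbol from the 18854 genes counted in single cells of the mouse hippocampal neurogenic niche. All 10 were present in the count files, and 8 other Sox genes in the same files served only for comparison. The niche is the part of the dentate gyrus in which stem cells produce neurons throughout life, and it also holds astrocytes, oligodendrocyte precursors, myelinating oligodendrocytes and microglia. The niche group comprised 31 libraries in 5 numbered experiments from wild-type C57BL/6 mice, whose age the labels do not give. Hippocampal tissue was first depleted of neurons, and live cells that did not bind antibodies to GluR1 and Cd24 were sorted into plates that carried spike-in RNA. One library came from mice older than 12 months after the same depletion and gate, and 1 library held GFP-positive hippocampal cells of NestinGFP mice, in which the Nestin promoter drives the reporter, so that library is selected for cells that make or have recently made the reporter. Each of these 2 groups is a single library. The sequencing method was SORT-seq, which counts the 3′ ends of transcripts per well with a molecular identifier.

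Sox proteins bind DNA through a shared HMG box and are sorted into families by the similarity of that box. SoxB1 proteins (Sox1, Sox2) keep neural progenitors undifferentiated, and the SoxB2 protein Sox21 is a repressor that opposes them. SoxC proteins (Sox4, Sox11) act in newly committed neurons, where they switch on genes of neuronal differentiation. SoxE proteins include Sox9, which acts in astrocytes and neural stem cells, Sox10, which drives myelin genes through the oligodendrocyte lineage, and Sox8, which partly substitutes for Sox10. SoxD proteins (Sox5, Sox6) have no activation domain of their own and in oligodendrocyte precursors hold back premature differentiation.

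The genes lie on 10 different mouse chromosomes of build mm10. Sox1 (chr8:12395295-12400126), Sox2 (chr3:34650405-34652461), Sox4 (chr13:28948919-28953713), Sox11 (chr12:27334264-27342574) and Sox21 (chr14:118233232-118237030) are annotated with a single exon. Sox8 (chr17:25565892-25570686) and Sox9 (chr11:112782224-112787760) have 3 exons and Sox10 (chr15:79154908-79165240) has 5. Sox5 (chr6:143828425-144781977) and Sox6 (chr7:115470872-116038796) are long genes with up to 15 and 17 exons. Sox2 lies within the long noncoding gene Sox2ot on the same strand and Sox1 is overlapped on its own strand by Sox1ot. Sox5 overlaps 7 other genes, among them Sox5it on the same strand, and Sox6 overlaps 2 on the opposite strand. Sox8 is overlapped on the opposite strand by 2810468N07Rik, and Sox4 and Sox21 each have a noncoding gene on the opposite strand. Because no source used here gives the strand setting of the counting, reads of these overlapping pairs cannot be told apart with certainty.

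The sequences before the start sites of both SoxC genes and of Sox2 are shown because these genes mark opposite ends of the neurogenic path in the values that follow. The RefSeq table of promoters (GRCm38.p6) held 8 of the 10 genes, without Sox9 and Sox10. Each sequence is the 250 bases before the start, written 5′ to 3′ on the gene's strand, with matches on either strand to the proneural E-box CANNTG and to the Sox cores ACAAT and ACAAAG in capitals. The windows are chr13:28953700-28953949 on the minus strand for Sox4, chr12:27342719-27342968 on the minus strand for Sox11 and chr3:34649745-34649994 on the plus strand for Sox2.
Sox4: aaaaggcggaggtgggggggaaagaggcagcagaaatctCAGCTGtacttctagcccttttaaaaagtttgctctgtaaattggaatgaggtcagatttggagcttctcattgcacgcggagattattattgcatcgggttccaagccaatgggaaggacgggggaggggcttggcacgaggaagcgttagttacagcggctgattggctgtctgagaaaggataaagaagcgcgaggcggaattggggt
Sox11: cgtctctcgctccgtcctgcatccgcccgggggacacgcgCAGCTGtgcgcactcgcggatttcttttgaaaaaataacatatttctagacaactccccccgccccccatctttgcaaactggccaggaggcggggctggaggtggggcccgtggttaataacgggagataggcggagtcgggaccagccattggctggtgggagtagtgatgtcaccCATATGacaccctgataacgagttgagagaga
Sox2: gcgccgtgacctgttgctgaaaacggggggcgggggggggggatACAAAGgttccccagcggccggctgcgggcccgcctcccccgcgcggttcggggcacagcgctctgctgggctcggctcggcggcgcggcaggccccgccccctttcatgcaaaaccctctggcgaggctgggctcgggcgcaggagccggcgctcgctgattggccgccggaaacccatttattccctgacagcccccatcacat
The Sox4 window held 1 E-box match and the Sox11 window held 2, and in each the more distal match had the form CAGCTG. Such E-box matches are common, since 66.2% of 32851 RefSeq promoter windows of this length hold one, whereas the form CAGCTG, looked up after the sequences were seen, occurs in 13% of them. The Sox2 window held no E-box and 1 ACAAAG match, a word present in 16.5% of the windows, and none of the 3 held ACAAT, present in 27.7%. These matches describe the letters of the windows and are not measurements of binding.

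A well counted as a cell from 1000 transcripts upwards, which left 1738 cells, 1285 of them from the niche experiments (435, 381, 155, 141 and 173 in experiments 1 to 5), 138 from the old mice and 315 from the Nestin-GFP library. Before that limit the wells of each experiment or library summed to between 568538 and 2658266 transcripts. Cells were grouped by clustering with the Sox genes left out, and the groups were named "-like" from marker genes that include no Sox gene. Each count was placed at random in one of 2 equal portions. The first portion drew the clusters and the second gave the tests and most levels, so the values of a Sox gene did not shape the classes in which it was measured. Shares of cells, pairs of genes, wells under 500 transcripts and the Sox10 and Pdgfra levels of the next paragraph come from all counts. Levels are CPM, the counts of a gene per 1000000 transcripts of a class in 1 experiment, where at least 5 of its cells were present. Differences are log2 fold changes from edgeR's quasi-likelihood test with experiment as a block, adjusted by the Benjamini-Hochberg method over all genes tested. That test gives no standard error (SE). The SE was taken as the absolute log2 fold change divided by the square root of the test's F statistic. Nothing in the labels says that the experiments came from separate animals, so the p-values measure the spread between these experiments. Sums over cells cannot tell fewer transcripts per cell from fewer cells that make the transcript.

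Libraries stood apart in the level of Sox10 outside the oligodendrocyte lineage, which touches every Sox10 value. In microglia-like cells, which belong to the immune system, Sox10 was found in 88% of cells in experiment 2 but in 7.58% in experiment 1, with 359 and 64.2 CPM over all counts. Astrocyte-like cells of experiment 2 held 860 CPM of Sox10 and those of experiments 1, 3, 4 and 5 held 33.1 to 76.5 CPM. The Nestin-GFP library showed 498 CPM in its astrocyte-like cells, and the old library showed 255 CPM in its microglia-like cells. Wells with fewer than 500 transcripts also carried Sox10, at 2770 CPM in experiment 2, 1257 in experiment 3, 2798 in the old library, 2255 in the Nestin-GFP library and 243 to 492 in experiments 1, 4 and 5. The precursor marker Pdgfra was also higher in experiment 2 in some classes, at 122.8 CPM in astrocyte-like cells against 17.7 to 59.5 in the other niche experiments and at 957.5 CPM in wells under 500 transcripts against 195.6 to 466.3. In microglia-like cells it was at 73.2 CPM in experiment 2, inside the 26.1 to 115 CPM of the other niche experiments. By share, Pdgfra was in 32% of microglia-like cells in experiment 2 and in 9.09%, 16.7%, 33.3% and 5% in experiments 1, 3, 4 and 5. There were 4.91 Sox10 counts per Pdgfra count (95% interval 3.08 to 8.16, counting error only) in microglia-like cells of experiment 2, against 0.916 (0.864 to 0.971) in its oligodendrocyte precursor-like cells. By value the ratio was also higher in microglia-like cells of experiments 5, 3 and 1. In experiments 3 and 1 the interval held the precursor-like ratio, and experiment 5 rested on 10 Sox10 and 3 Pdgfra counts. It was 3.33 (0.858 to 18.9) against 0.266 in experiment 5, 1.46 (0.634 to 3.47) against 0.686 in experiment 3 and 0.558 (0.341 to 0.895) against 0.463 in experiment 1. The labels describe some libraries of experiment 2 as a resequencing of the original ones. Whether free RNA or another source carried Sox10 into these wells was not tested. Most tests and the thinned shares of Sox10 that include experiment 2 are also given without it.

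**Figure D1:**
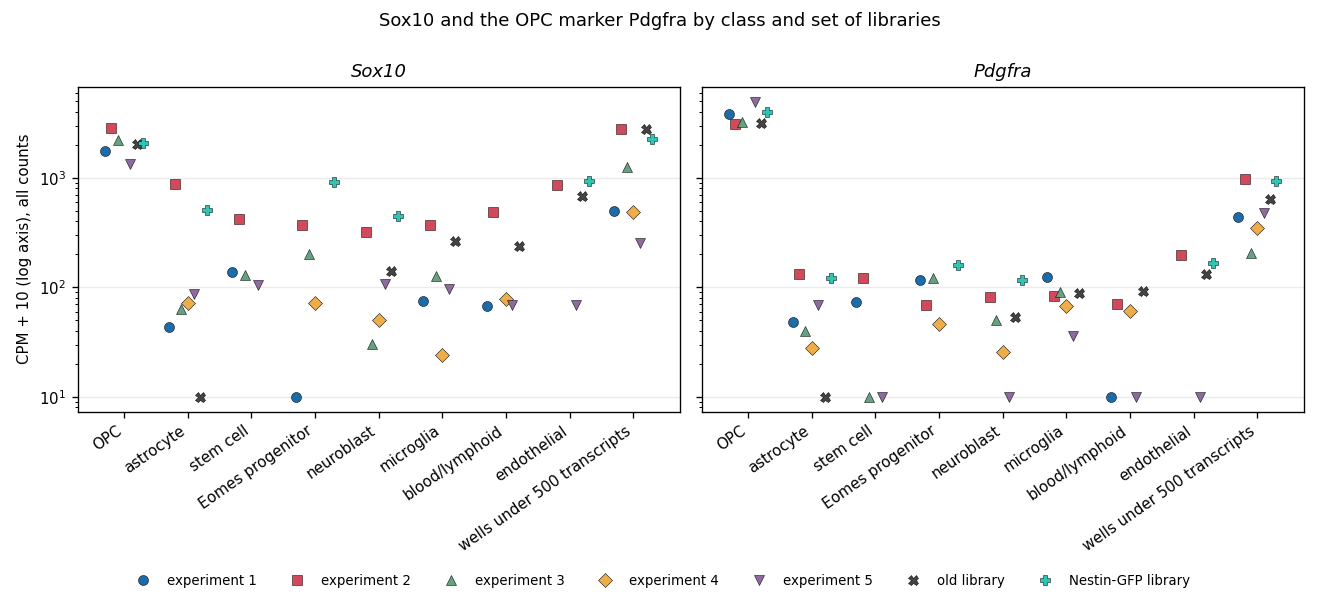
Sox10 and Pdgfra in CPM (log axis, 10 added) by cell class and by experiment or library, from all counts, with wells under 500 transcripts at one end. Sox10 in astrocyte-like cells reached 860 CPM in experiment 2 and at most 76.5 CPM in the other niche experiments, while in oligodendrocyte precursor-like cells it lay above 1000 CPM in each.

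The map of all 10 genes over the classes separated an astrocyte and stem cell group (Sox9, Sox2, Sox21), a neuronal group (Sox4, Sox11) and an oligodendrocyte group (Sox10, Sox6, Sox8). Sox1 fell outside them, with its highest mean, 451 CPM, in proliferating-like cells. Its means were 236 CPM in stem cell-like, 179 in Eomes-type progenitor-like and 86.2 in astrocyte-like cells. The groups were not exclusive. Sox5 belonged to none, with 114 ± 62.3 CPM (SD, n = 4) in precursor-like, 93.9 ± 42.1 (SD, n = 4) in stem cell-like and 62.5 ± 20.4 (SD, n = 5) in astrocyte-like cells. Sox2 was also present in oligodendrocyte precursors, Sox21 in precursors and astrocytes alike, and Sox4 in microglia.

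**Figure D2:**
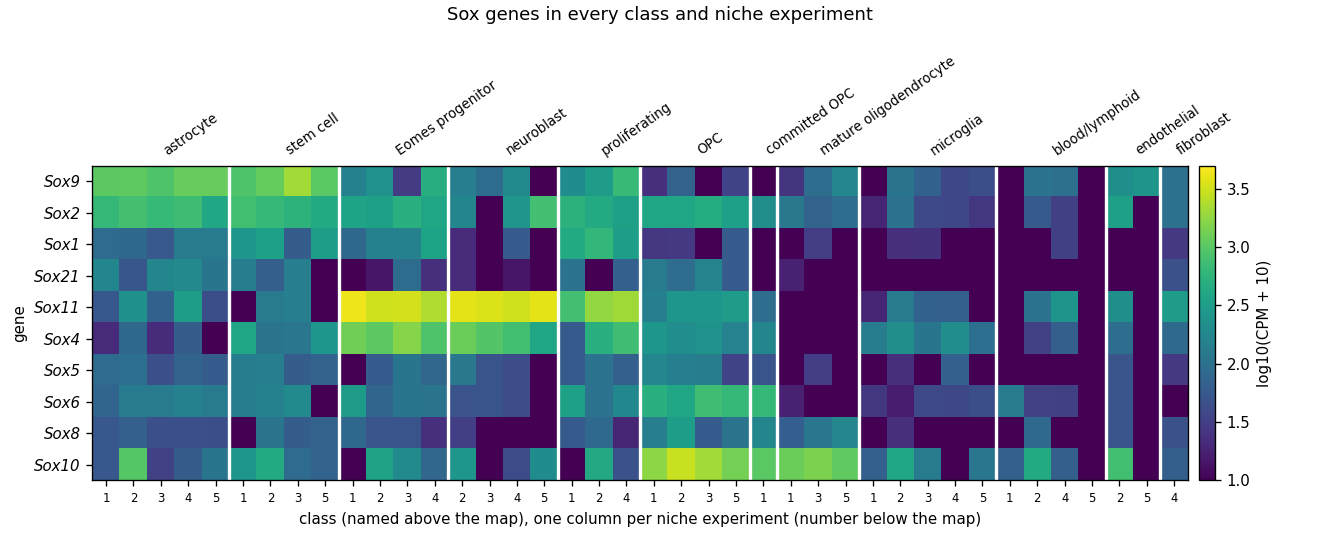
Heat map of log10(CPM + 10) for the 10 Sox genes (rows) in each class and niche experiment (columns), from the counts that drew no cluster. Brighter colours are higher levels. Sox11 is bright in the neuroblast-like and Eomes-type progenitor-like columns (2387 to 4242 CPM in the niche), and Sox10 is bright in the oligodendrocyte columns.

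The first question was how the Sox genes are distributed along the neurogenic path. The order taken was astrocyte-like, neural stem cell-like, proliferating-like, Eomes-type progenitor-like and neuroblast-like cells, the last being young migrating neurons. Proliferating-like cells were named from cell cycle genes, so they may hold more than 1 lineage. The 7 of experiment 1 held 317 CPM of Pdgfra (in 3 cells) and 390 CPM of Olig1 over all counts. In experiments 2 and 4 Pdgfra was at 85.1 and 28.7 CPM in this class. Of the 30 neuroblast-like cells of experiment 4, 23 formed a separate cluster led by Tac2 and Neurod2, with a median of 16965 transcripts. Cd24a is among the neuroblast markers, while the sort took cells that did not bind the Cd24 antibody. How well these cells stand for all neuroblasts was not tested. Sox9 and Sox2 were high at the start of this order and low at its end, Sox4 and Sox11 ran the other way, and the mean of Sox1 was highest in between. No Sox gene distinguished stem cell-like from astrocyte-like cells by the test.

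Sox9, the SoxE gene of astrocytes and stem cells, measured 1036, 1054, 899, 1170 and 1176 CPM in astrocyte-like cells of experiments 1 to 5. In neural stem cell-like cells it measured 887, 1157, 2125 and 1006 CPM in experiments 1, 2, 3 and 5. The ranges overlapped, and experiment 3 stood highest among the stem cell-like values with 11 cells. Means were 1294 ± 565 CPM (SD, n = 4) in stem cell-like and 1067 ± 114 CPM (SD, n = 5) in astrocyte-like cells. Proliferating-like cells followed at 376 ± 235 (SD, n = 3), Eomes-type progenitor-like cells at 214 ± 191 (SD, n = 4) and neuroblast-like cells at 99.6 ± 79 (SD, n = 4), and each of these neighbours in the order overlapped with the next. The old and Nestin-GFP libraries gave 973 CPM (exact Poisson interval 357 to 2117) and 1139 CPM (1007 to 1285) in astrocyte-like cells, inside the niche range.

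Sox2, the SoxB1 gene of progenitors, was spread more widely. It measured 617, 794, 639, 718 and 392 CPM in astrocyte-like cells of experiments 1 to 5 and 760, 623, 551 and 440 in stem cell-like cells of experiments 1, 2, 3 and 5. Both groups lay in the same range. Proliferating-like cells held 537, 438 and 336 CPM in experiments 1, 2 and 4, and Eomes-type progenitor-like cells held 360, 332, 507 and 386 in experiments 1 to 4. Neuroblast-like cells held 165, 0, 249 and 780 CPM in experiments 2 to 5, the last value from 4 counts in 5 cells, so this class had the widest spread. In the Nestin-GFP library Sox2 was at 120 CPM in neuroblast-like cells (65.6 to 201) and 548 in astrocyte-like cells (457 to 652).

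Sox1, the other SoxB1 gene, had its highest mean in dividing cells, though no test compared these with the classes beside them. Proliferating-like cells measured 439, 608 and 307 CPM in experiments 1, 2 and 4, a mean of 451 ± 151 (SD, n = 3). Stem cell-like cells measured 253, 323, 52.5 and 314 CPM in experiments 1, 2, 3 and 5, of which the first rests on 2 counts. Eomes-type progenitor-like cells gave 71.9, 145, 142 and 358 CPM in experiments 1 to 4 and overlapped with the stem cell-like values. In experiment 4 they lay above the proliferating-like cells, and the stem cell-like sums of experiments 2 and 5 also lay inside the proliferating-like range. Astrocyte-like cells ranged from 47.3 to 119 CPM and neuroblast-like cells from 0 to 49.8. All 3 proliferating-like sums and all 4 stem cell-like sums lay above the neuroblast-like range, the lowest by little. Sox21, the SoxB2 repressor, was at 130.7 ± 57.1 CPM (SD, n = 5) in astrocyte-like cells and at 78.4 ± 62.7 (SD, n = 4) in stem cell-like cells, and it summed to 3 counts over 4 experiments in neuroblast-like cells. Over all classes Sox21 had so few counts that most of its differences were not detectable at this depth.

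Sox11, a SoxC gene of newborn neurons, measured 3828, 3635, 3172 and 3901 CPM in neuroblast-like cells of experiments 2 to 5. Eomes-type progenitor-like cells measured 4242, 3155, 3304 and 2387 CPM in experiments 1 to 4, and the 2 classes overlapped. Proliferating-like cells lay below both at 781, 1800 and 2062 CPM in experiments 1, 2 and 4. Stem cell-like cells measured 0, 122, 131 and 0 CPM in experiments 1, 2, 3 and 5 and astrocyte-like cells ranged from 34.1 to 310. No stem cell-like or astrocyte-like sum came near a neuroblast-like sum. The old library was at 4335 CPM (3667 to 5089) and the Nestin-GFP library at 3950 CPM (3598 to 4328) in neuroblast-like cells, beside a niche range of 3172 to 3901.

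Sox4, the other SoxC gene, measured 1239, 929, 756 and 390 CPM in neuroblast-like cells of experiments 2 to 5, where the last value rests on 2 counts. Eomes-type progenitor-like cells measured 1294, 1049, 1622 and 889 CPM in experiments 1 to 4. The ranges of both classes overlapped again. Proliferating-like cells spanned 48.8 to 738 CPM and stem cell-like cells 100.1 to 380. Astrocyte-like cells held 0 to 72.2 CPM of Sox4, below every stem cell-like sum. In the old library Sox4 stood at 931 CPM in neuroblast-like cells (637 to 1314), and in the Nestin-GFP library it stood at 1260 (1064 to 1480).

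**Figure D3:**
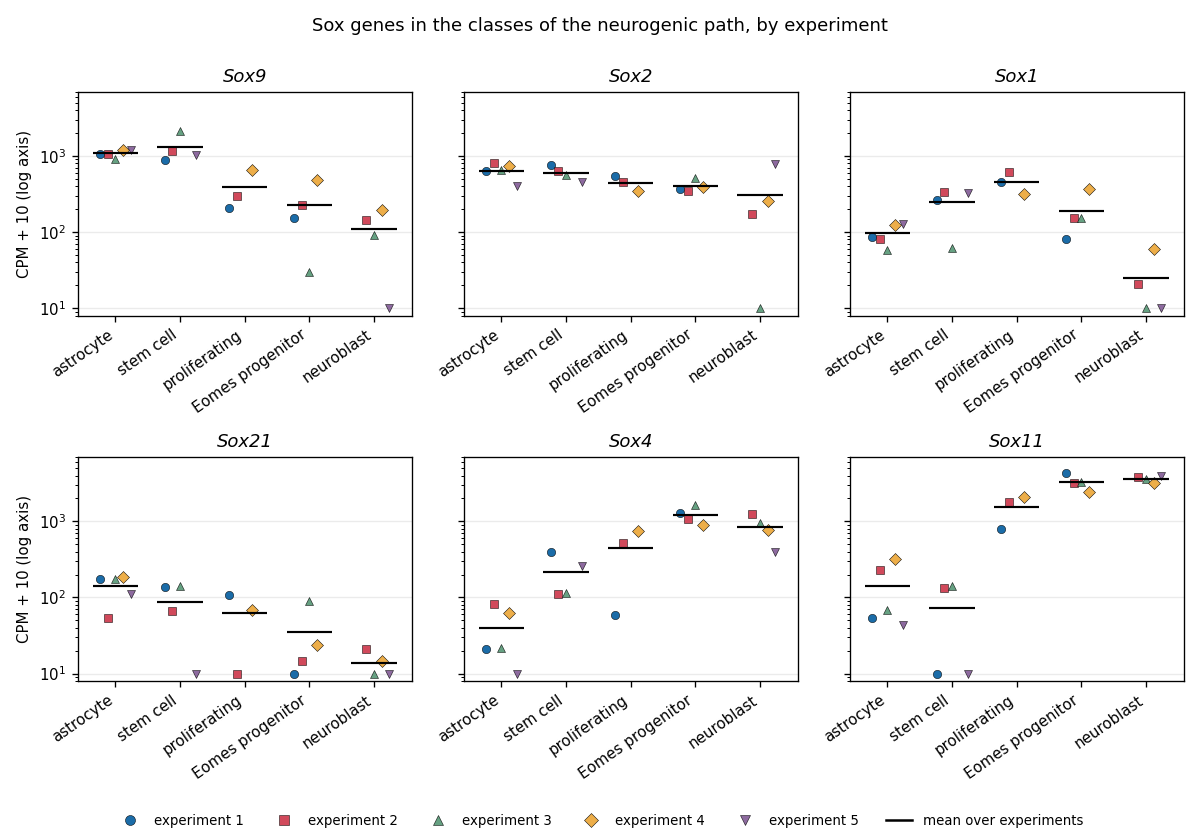
Levels of Sox9, Sox2, Sox1, Sox21, Sox4 and Sox11 (CPM + 10, log axis) in astrocyte-like, neural stem cell-like, proliferating-like, Eomes-type progenitor-like and neuroblast-like cells, with 1 point per experiment. Mean Sox9 is 1067 CPM in astrocyte-like and 99.6 CPM in neuroblast-like cells, and Sox11 runs the opposite way.

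The stem cell-like sums were set against the astrocyte-like sums of experiments 1, 2, 3 and 5. Of 1178 genes tested, 14.8% were called at an adjusted p under 0.05, and 0 of the 2 Sox genes that passed the filter on low counts were among them. Sox9 differed by 0.31 ± 0.26 (log2, SE; edgeR adjusted p = 0.475) and Sox2 by -0.15 ± 0.28 (edgeR adjusted p = 0.798). Neither had an unadjusted p under 0.05, and DESeq2 also called 0. The filter had left out 8 Sox genes, so a lower limit of 15 counts over all sums was added after the data were seen. With it all 10 were tested, 3.16% of 6075 genes were called and 0 of the 10 Sox genes were, 1 with an unadjusted p under 0.05. That gene was Sox4, at 2.28 ± 0.80 (edgeR adjusted p = 0.0996), and Sox1 stood at 1.11 ± 0.58 (edgeR adjusted p = 0.480). Sox10 stood at -0.59 (edgeR adjusted p = 0.859) and without experiment 2 at 0.71 (edgeR adjusted p = 0.962), so its sign turned. At these standard errors a 2-fold difference in Sox1 was not detectable.

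Experiments 2, 3 and 5 allowed neuroblast-like cells to be set against stem cell-like cells. Sox11 was higher by 4.72 ± 0.43 (log2, SE; edgeR adjusted p = 4.11e-25) and Sox4 by 2.61 ± 0.50 (edgeR adjusted p = 1.04e-06), both higher in 3 of 3 experiments. Sox9 differed by -3.87 ± 0.39 (edgeR adjusted p = 4.79e-21) and Sox2 by -2.21 ± 0.51 (edgeR adjusted p = 6.52e-05). All 4 Sox genes that passed the filter were called, where 48.8% of the 490 genes tested were called. With the limit of 15 counts, 10.7% of 5798 genes were called and Sox1 joined them (edgeR adjusted p = 0.000167). It rested on 2 counts in neuroblast-like and 36 in stem cell-like cells, a ratio of 26.5 with a counting interval of 6.81 to 227. Sox1 reached the limit through the stem cell-like counts alone, so it could only come out lower. Sox5, Sox6, Sox8 and Sox10 did not pass the test there, Sox10 at -0.92 (edgeR adjusted p = 0.5) with experiment 2 included, and Sox21 was not tested. The Sox2 call was lost without the experiment block, at -2.01 (edgeR adjusted p = 0.115).

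Against astrocyte-like cells, in experiments 2 to 5, the neuroblast-like cells gave the same division. Sox11 was higher by 4.18 ± 0.38 (edgeR adjusted p = 6.8e-27) and Sox4 by 4.20 ± 0.41 (edgeR adjusted p = 7.37e-23), while Sox9 differed by -3.11 ± 0.32 (edgeR adjusted p = 1.51e-20) and Sox2 by -2.04 ± 0.31 (edgeR adjusted p = 4.92e-10). Again 4 of 4 tested Sox genes were called, beside 56.9% of 1689 genes. Over all genes 436 were higher and 525 lower, and with DESeq2's size factors 321 were higher and 687 lower with the median gene at -0.42. None of the Sox directions turned under that scaling. With the limit of 15 counts, 24.6% of 8416 genes and 9 of 10 Sox genes were called, with Sox5 the exception at -0.70 (edgeR adjusted p = 0.492). Sox6 (-2.32, edgeR adjusted p = 0.000619), Sox1 (-2.17, edgeR adjusted p = 0.00695), Sox8 (-2.73, edgeR adjusted p = 0.0268) and Sox21 (edgeR adjusted p = 5.82e-07, 3 counts against 43, a ratio of 19.1 with interval 6.10 to 96) were lower in neuroblast-like cells. Sox21 reached the limit through the astrocyte-like counts alone, so it could only come out lower. Sox10 was called at -1.98 (edgeR adjusted p = 0.000232), which without experiment 2 became -0.94 (edgeR adjusted p = 0.627). Leaving out 1 experiment also ended the calls of Sox1, Sox6 and Sox8, with the highest edgeR adjusted p values at 0.155, 0.106 and 0.0661, Sox1 without experiment 2 and without experiment 4, Sox6 without experiment 4 and Sox8 without experiment 5.

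Eomes-type progenitor-like cells, the dividing intermediate step named after the transcription factor Eomes, were set against neuroblast-like cells in experiments 2, 3 and 4. They held more of 3 progenitor genes, Sox1 by 3.07 ± 0.41 (edgeR adjusted p = 1.74e-11), Sox2 by 1.01 ± 0.25 (edgeR adjusted p = 0.00126) and Sox9 by 1.02 ± 0.28 (edgeR adjusted p = 0.00594). Both SoxC genes had small differences, Sox11 of -0.27 ± 0.14 (edgeR adjusted p = 0.278) and Sox4 of 0.15 ± 0.16 (edgeR adjusted p = 0.70). Of 8 Sox genes tested 3 were called, where 8.23% of 4861 genes were called. Sox5, Sox6 and Sox10 did not pass, Sox10 at 0.75 (edgeR adjusted p = 0.158) and without experiment 2, at the limit of 15 counts, at 1.57 (edgeR adjusted p = 0.425), and Sox8 and Sox21 had too few counts for the filter. All 3 calls were lost in a fit without the experiment block, in which Sox1 had an edgeR adjusted p = 0.0508. Among cells with at least 2000 transcripts Sox2 and Sox9 lost their calls (edgeR adjusted p = 0.258 and 0.763) and Sox1 did not pass the filter. DESeq2 called 1 gene, Sox1 (DESeq2 adjusted p = 0.000597), and without experiment 4 Sox9 stood at 0.51 (edgeR adjusted p = 0.783).

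The oligodendrocyte path runs from oligodendrocyte precursor-like cells, which divide and carry Pdgfra, through committed precursor-like cells to mature oligodendrocyte-like cells that make myelin. The precursor-like class joined 2 clusters. That led by Lhfpl3 and Pdgfra held 130, 9, 15 and 24 cells of experiments 1, 2, 3 and 5. That led by Matn4, Gpr17 and Neu4 held 0, 73, 2 and 2. Gpr17 and Neu4 are also in the marker set of committed precursors. Precursor-like values of experiment 2 thus come mostly from another cluster than those of experiment 1, and its part in their differences was not tested. Sox10 was present at every step. Sox6, Sox5, Sox2, Sox4, Sox11 and Sox21 had counts in the precursors and stood at 0 to 110 CPM in the mature cells of the niche. Sox8 was kept at a low level throughout.

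Sox10 measured 1712, 2945, 2083 and 1358 CPM in precursor-like cells of experiments 1, 2, 3 and 5, and experiment 2 was the highest. Mature oligodendrocyte-like cells measured 1228, 1469 and 1084 CPM in experiments 1, 3 and 5, so the ranges overlapped by the lowest precursor-like sum. The 8 committed precursor-like cells of experiment 1 gave 1020 CPM. The Nestin-GFP library held 2202 CPM in precursor-like cells (2016 to 2401) and 1803 in mature cells (1663 to 1951), and the old library held 2140 (1844 to 2469) and 1544 (1026 to 2231). Precursor-like sums were the higher of the pair in both.

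Sox6, the SoxD gene that restrains precursors, measured 505, 374, 737 and 617 CPM in precursor-like cells of experiments 1, 2, 3 and 5. The committed precursor-like cells of experiment 1 were at 612 CPM. Mature cells measured 7.82, 0 and 0 CPM in experiments 1, 3 and 5, which is 1 count in all, so the committed cells lay inside the precursor-like range and the mature cells far below it. In astrocyte-like cells Sox6 was at 112 ± 27.8 CPM (SD, n = 5). Sox5, its SoxD relative, measured 168, 138, 127 and 24.7 CPM in precursor-like cells and 0, 20.7 and 0 in mature cells, with 62.5 ± 20.4 CPM (SD, n = 5) in astrocyte-like cells. The lowest Sox5 value among precursor-like cells was 1 count in 26 cells of experiment 5.

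Sox8, the remaining SoxE gene, measured 132, 311, 50.8 and 98.8 CPM in precursor-like cells of experiments 1, 2, 3 and 5 and 54.8, 104 and 167 CPM in mature cells of experiments 1, 3 and 5. The classes overlapped and the mature values rest on 2 to 7 counts. The Nestin-GFP library, with more cells, held 277 CPM in precursor-like and 137 CPM in mature cells. Sox9 was nearly absent from precursor-like cells, at 13.2, 62.3, 0 and 24.7 CPM, and it measured 15.7, 82.8 and 167 CPM in mature cells from 2 to 4 counts each.

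Sox2 measured 386, 376, 457 and 321 CPM in precursor-like cells of experiments 1, 2, 3 and 5 and 110, 62.1 and 83.4 CPM in mature cells. Every precursor-like sum lay above every mature sum. Sox4 measured 251, 202, 229 and 148 CPM and Sox11 measured 135, 254, 254 and 296 CPM in the same precursor-like sums, and both had 0 counts in the mature cells of all 3 niche experiments. Wells under 500 transcripts held Sox4 at 262.3, 290.7, 90.3 and 40.6 CPM in experiments 1, 2, 3 and 5. Sox11 was there at 131.2, 1248, 308.5 and 20.3 CPM. Microglia-like cells held 87.1 to 206 CPM of Sox4, which overlapped the precursor-like values. The part of such RNA in the precursor-like values was not tested. The mature cells of the Nestin-GFP library held 14.6 CPM of Sox4 (4.74 to 34.1) and 49.7 CPM of Sox11 (28.9 to 79.5), while 0 counts in experiment 1, the largest niche sum of mature cells, allow up to 23.5 CPM. Sox21 was at 101.7 ± 45 CPM (SD, n = 4) in precursor-like cells and Sox1 at 21 ± 20.6 (SD, n = 4).

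**Figure D4:**
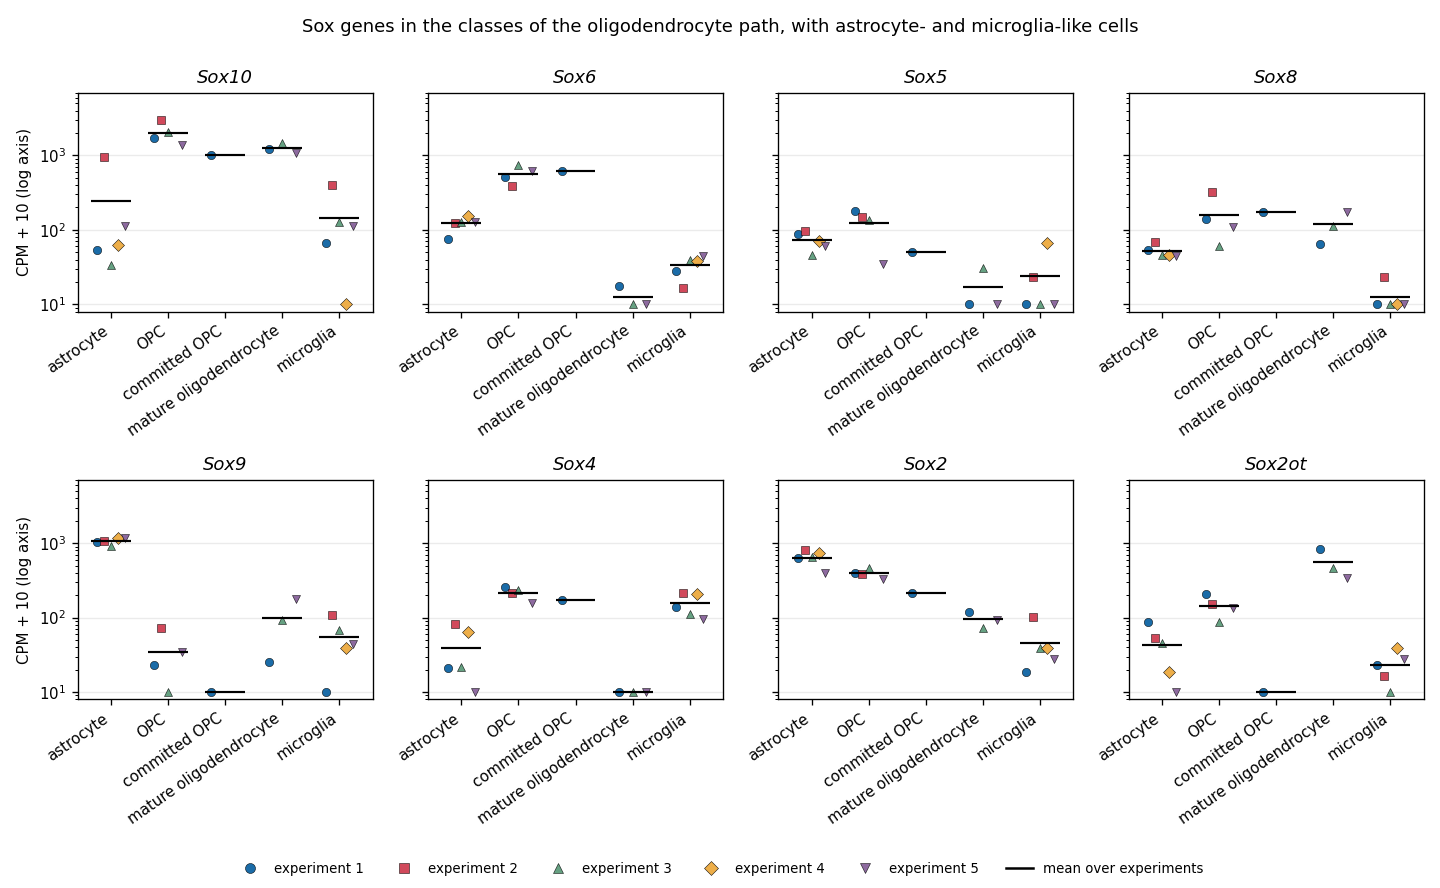
Levels of Sox10, Sox6, Sox5, Sox8, Sox9, Sox4, Sox2 and Sox2ot (CPM + 10, log axis) in astrocyte-like, oligodendrocyte precursor-like, committed precursor-like, mature oligodendrocyte-like and microglia-like cells, with 1 point per experiment. Sox6 stands at 374 to 737 CPM in precursor-like cells and at most 7.82 CPM in mature cells, while Sox2ot is higher in mature cells.

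Experiments 1, 2, 3 and 5 held both oligodendrocyte precursor-like and astrocyte-like cells. Sox10 was higher by 3.30 ± 0.37 (log2, SE; edgeR adjusted p = 2.04e-09), Sox4 by 2.93 ± 0.53 (edgeR adjusted p = 1.79e-05) and Sox6 by 2.22 ± 0.31 (edgeR adjusted p = 2.17e-07). Sox9 differed by -5.10 ± 0.35 (edgeR adjusted p = 1.3e-14) and Sox2 by -0.87 ± 0.24 (edgeR adjusted p = 0.00335). Without experiment 2 the Sox10 difference was 4.89 (edgeR adjusted p = 9.74e-13). All 6 Sox genes tested were called, beside 44.3% of 1692 genes. The sixth was Sox11 at 1.15 ± 0.39 (edgeR adjusted p = 0.0163), a call lost without experiment 1, 3 or 5 (edgeR adjusted p between 0.0811 and 0.112) and without the experiment block (edgeR adjusted p = 0.0818). Sox2 lost its call without experiment 2 (-0.66, edgeR adjusted p = 0.0728). With the limit of 15 counts, 16.8% of 9784 genes were called. Sox8 then stood at 1.46 (edgeR adjusted p = 0.0209) and Sox1 at -2.27 (edgeR adjusted p = 0.00646), and leaving out 1 experiment raised these to as much as 0.430 (Sox8, without experiment 1 or 2) and 0.0984 (Sox1, without experiment 1). Sox5 (0.59, edgeR adjusted p = 0.495) and Sox21 (-0.45, edgeR adjusted p = 0.590) did not pass, and Sox11 lost its call (1.02, edgeR adjusted p = 0.0529), which left 7 of 10 Sox genes called.

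Against neuroblast-like cells, in experiments 2, 3 and 5, the precursor-like cells held more Sox10, by 3.98 ± 0.35 (edgeR adjusted p = 1.05e-10), and more Sox6, by 3.62 ± 0.47 (edgeR adjusted p = 1.75e-07). Without experiment 2 the Sox10 difference was 6.01 (edgeR adjusted p = 8.4e-10). The SoxC genes differed by -3.68 ± 0.26 for Sox11 (edgeR adjusted p = 1.67e-12) and by -2.22 ± 0.30 for Sox4 (edgeR adjusted p = 4.12e-07). Sox2 was called at 1.38 ± 0.47 (edgeR adjusted p = 0.0135), which made 5 of 5 tested Sox genes beside 52.4% of 704 genes. That Sox2 call was lost in 8 of 18 other settings, among them without experiment 2 (edgeR adjusted p = 0.0621), without experiment 3 (edgeR adjusted p = 0.793) and without the experiment block (edgeR adjusted p = 0.279), and Sox4 lost its call without experiment 3 (edgeR adjusted p = 0.0800). Over all genes 184 were higher and 185 lower, against 266 and 120 with DESeq2's size factors, which placed the median gene at 0.42 and turned no Sox direction. With the limit of 15 counts, 7.42% of 8535 genes were called and Sox8 was higher by 3.67 ± 0.99 (edgeR adjusted p = 0.00491), though not without experiment 3 (edgeR adjusted p = 0.306). Sox9 (-1.33, edgeR adjusted p = 0.455), Sox21 (3.10, edgeR adjusted p = 0.0752) and Sox5 (0.49, edgeR adjusted p = 0.887) did not pass, and Sox2 lost its call (1.34, edgeR adjusted p = 0.182), which left 5 of 9 called. Sox1 was not tested.

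The last step, mature oligodendrocyte-like against precursor-like cells, was tested in experiments 1, 3 and 5, where the median of all genes was -0.30. Of 901 genes 59.4% were called, and all 3 Sox genes that passed the filter were called lower, as were 34.7% of all genes tested. Sox6 had 1 count in mature and 207 in precursor-like cells, a ratio of 102 with a counting interval of 18 to 4034 (edgeR adjusted p = 1.53e-19). It passed the filter through the precursor-like sums alone, so it could only come out lower. Sox2 differed by -2.44 ± 0.47 (edgeR adjusted p = 8.84e-07). Sox10 differed by -0.79 ± 0.28 (edgeR adjusted p = 0.00867), but the call was lost in 12 of 19 other settings, among them without experiment 1, 3 or 5 (edgeR adjusted p between 0.173 and 0.341), without the experiment block (edgeR adjusted p = 0.0659) and with the limit of 15 counts (-0.29, edgeR adjusted p = 0.676).

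With that limit of 15 counts 18.2% of 7465 genes and 6 of 8 tested Sox genes were called in this last step. Sox4, Sox11, Sox5 and Sox21 reached the limit through precursor-like counts alone, so they could only come out lower. The number of calls is therefore a description. Sox4 had 0 counts against 91 and was at least 14.9-fold lower in mature cells, taking 3 counts over the group as the floor (edgeR adjusted p = 6.99e-07). Sox11 had 0 counts against 63 and was at least 10.3-fold lower (edgeR adjusted p = 6.31e-06). Sox5 had 1 count against 57, a ratio of 28 with interval 4.83 to 1125 (edgeR adjusted p = 0.00157), and Sox21 had 1 against 45, a ratio of 22.1 with interval 3.77 to 892 (edgeR adjusted p = 0.00381), which was lost without experiment 3 (edgeR adjusted p = 0.148). Sox8 did not pass at -0.22 ± 0.65 (edgeR adjusted p = 0.886). Committed precursor-like cells reached 5 cells only in experiment 1, so their step from the precursors has no test in these classes. When cells were classed by marker sum instead, experiments 1, 2 and 5 could be tested, and 0 of 7 Sox genes were called among 2635 genes, of which 13 were called, with edgeR adjusted p = 0.996 and 0 Sox genes at an unadjusted p under 0.05.

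**Figure D5:**
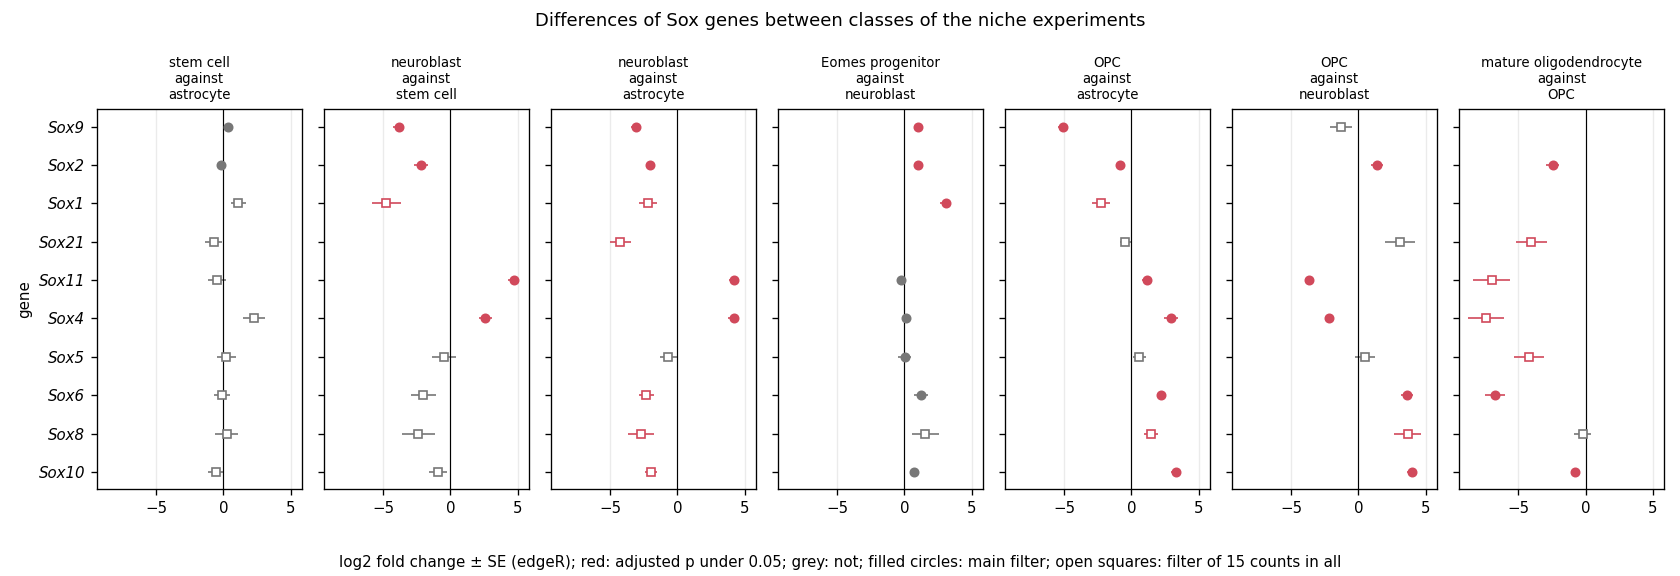
Log2 fold changes with SE of the Sox genes in the 7 comparisons that could be tested, from the filter of edgeR (filled circles) and the added limit of 15 counts (open squares), with adjusted p under 0.05 in red. Sox11 and Sox9 lie on opposite sides of 0 in neuroblast-like against stem cell-like cells, at 4.72 and -3.87.

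Sox2ot, the noncoding gene that surrounds Sox2, was higher in mature than in precursor-like cells, where Sox2 was lower. It measured 837, 455 and 333 CPM in mature cells of experiments 1, 3 and 5 and 198, 143, 76.2 and 124 CPM in precursor-like cells of experiments 1, 2, 3 and 5. The 8 committed precursor-like cells of experiment 1 held 0 counts of Sox2ot, which allows up to 122 CPM, and 204 CPM of Sox2. All mature sums lay above all precursor-like sums, and the difference was 1.69 ± 0.41 (edgeR adjusted p = 9.21e-05), higher in 3 of 3 experiments. In the Nestin-GFP library Sox2ot was at 637 CPM in mature cells (555 to 727) and 171 CPM in precursor-like cells (122 to 232), and in the old library it was at 662 (342 to 1156) and 80.1 (32.2 to 165). Since Sox2 lies inside Sox2ot on the same strand, reads can be split between them by the counting, and how much of either value rests on shared reads was not tested.

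Shares of cells were compared after thinning each cell to 1000 transcripts, with exact binomial intervals that cover counting error only. A Sox11 transcript was found in 95% of Eomes-type progenitor-like cells (88.7 to 98.4), 93.5% of neuroblast-like (86.3 to 97.6) and 60.5% of proliferating-like cells (43.4 to 76). Microglia-like cells, used as the background, showed it in 4.88% (2.69 to 8.05) and mature oligodendrocyte-like cells in 0 of 66, which allows a share of up to 4.55% of cells with a transcript at the thinned depth, and before thinning in 3.03%. Their unthinned median depths were 3096 transcripts in microglia-like, 7692 in neuroblast-like and 9424 in Eomes-type progenitor-like cells, and unthinned shares of Sox11 were 13.9%, 98.9% and 99%. Sox9 was found in 65.3% of stem cell-like (50.4 to 78.3), 59.5% of astrocyte-like (52.7 to 66) and 3.48% of microglia-like cells after thinning, and in 93.9%, 83.4% and 11.1% before it. Sox9 in precursor-like cells, at 1.93% (0.630 to 4.45), was no higher than in microglia-like cells. Sox10 was in 83% of precursor-like cells (77.9 to 87.4) and 75.8% of mature cells (63.6 to 85.5) after thinning, beside 12.9% of microglia-like cells (9.24 to 17.3), and before thinning in 96.5%, 98.5% and 26.8%. Without experiment 2 the thinned shares of Sox10 were 78.5%, 75.0% and 8.02%, and it was in 0 of 46 neuroblast-like cells, which allows a share of up to 6.52% of cells with a transcript at the thinned depth. Before thinning it was in 23.9% of those 46 cells (12.6 to 38.8).

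Pairs of Sox genes in the same cell were counted without thinning. Sox4 and Sox11 occurred together in 94 of 100 Eomes-type progenitor-like cells and in 90.2% of 92 neuroblast-like cells (83 cells). Sox1 and Sox2 occurred together in 78.9% of 38 proliferating-like cells and 55.1% of 49 stem cell-like cells. A progenitor gene and a SoxC gene also met in single cells, since Sox2 and Sox11 were both found in 80 of 100 Eomes-type progenitor-like cells. Sox6 and Sox10 were both found in 76.1% of 259 precursor-like cells and in 4.55% of 66 mature cells, and without experiment 2 in 71.8% of 177 precursor-like cells. The astrocyte gene Sox9 and Sox10 were both found in 45 of 259 precursor-like cells (17.4%), and without experiment 2 in 8 of 177 (4.52%). These shares move with depth, and cells of 1 library are not replicates.

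Sox4 was the one SoxC gene with counts in microglia-like cells of every niche experiment, at 129, 206, 103, 200.5 and 87.1 CPM in experiments 1 to 5. The old library was at 205 CPM there (132 to 302). Wells under 500 transcripts of experiments 1 to 5 held Sox4 at 262.3, 290.7, 90.3, 336.4 and 40.6 CPM, above the microglia-like value in experiments 1, 2 and 4, and the part of such RNA in the microglia-like values was not tested. The astrocyte-like cells of the same experiments held 0 to 72.2 CPM, below each microglia-like value, and after thinning Sox4 was in 9.06% of microglia-like (6.00 to 13) and 4.50% of astrocyte-like cells (2.18 to 8.13). Sox11 in microglia-like cells ranged from 0 to 120 CPM. Sox21 had 0 counts in microglia-like, endothelial-like and blood and lymphoid-like sums of the niche.

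Among the 8 other Sox genes, Sox17 and Sox18, the SoxF genes of blood vessels, had their level in endothelial-like cells. Sox17 measured 584 and 358 CPM in experiments 2 and 5 and Sox18 measured 626 and 358 CPM, from 15 and 7 cells. Sox3, a SoxB1 gene on the X chromosome, was at 115, 104, 0 and 148 CPM in precursor-like cells of experiments 1, 2, 3 and 5, where Sox1 was nearly absent. It was not particular to them. The mean of Sox3 was 91.8 ± 64 CPM (SD, n = 4) in precursor-like and 87.2 ± 86.3 CPM (SD, n = 4) in stem cell-like cells, the latter from 7 counts. With the limit of 15 counts Sox3 had 81 counts in precursor-like and 2 in astrocyte-like cells, a ratio of 16 with interval 4.28 to 134 (edgeR adjusted p = 0.00148). It reached the limit through the precursor-like counts alone, so it could only come out higher there.

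The genes whose level across 40 sums of class and experiment was most like that of each Sox gene were looked up among 4979 genes, by Pearson's r of log2(CPM + 10). The sums share libraries and depth, so r is a description. Sox11 was most like Nsg2 (0.946), Dbn1 (0.944) and Miat (0.934), and Sox4 most like Rtn1 (0.883), Elavl4 (0.870) and Ptprs (0.826). Sox9 was closest to Tmem47 (0.823), Idi1 (0.785) and Gldc (0.783), the last a glycine-cleavage enzyme of astrocytes. Among the genes closest to Sox2 were Acat1 (0.849) and Sqle (0.805), and Sox1 was closest to 2810459M11Rik (0.820), Fezf2 (0.803) and Emx2 (0.802). Sox10, over sums that include experiment 2, was closest to Enpp2 (0.773), Olig1 (0.748) and Pllp (0.738), Sox6 to the precursor proteoglycan gene Vcan (0.837), and Sox5 to Hmgn3 (0.786). Sox8 was closest to Olig1 (0.802), and among its 3 closest was 2810468N07Rik (0.764), which overlaps it on the opposite strand. Sox21 was closest to Ednrb (0.819), an endothelin receptor of astrocytes.

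Partner factors and genes reported as targets of each family were counted as a description, since these genes took part in the clustering and many are class markers. Of 12 reported SoxC targets 8 were tested in neuroblast-like against astrocyte-like cells and all 8 were called higher, as were 25.8% of all genes, with a median of 3.63 against -0.02 for all genes. Marcksl1, which is no class marker, was among them, and 5 of the 8 are class markers. In precursor-like against neuroblast-like cells 6 of 8 tested SoxC targets were called lower and 0 higher, beside 26.3% of all genes lower. In Eomes-type progenitor-like against neuroblast-like cells neither SoxC gene was called. There 4 of 11 targets were called, 3 lower and 1 higher (Elavl4, 1.25), beside 8.23% of all genes called in either direction. In mature against precursor-like cells Sox4 and Sox11 had 0 counts in the mature sums. Stmn1 was called higher there (4.19) and Map2 (-3.79) and Marcksl1 (-1.80) lower. That made 3 of 3 tested, beside 59.4% of all genes called. Of 10 reported SoxB targets 3 were tested in Eomes-type progenitor-like against neuroblast-like cells and 3 were called higher, beside 3.68% of all genes, namely the receptor gene Notch1 (2.95), Vim (2.22) and Fabp7, of which the last pair are markers.

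Of 16 reported SoxE targets 13 were tested in mature against precursor-like cells. There 7 were called higher, beside 24.6% of all genes, led by the myelin genes Mog (8.81), Mag (7.90) and Mbp (6.45). The 6 called lower, beside 34.7% of all genes, were led by Pdgfra (-6.59), and 9 of the 13 are class markers. Sox10 itself was at 2024 ± 681 CPM (SD, n = 4) in precursor-like and 1260 ± 195 CPM (SD, n = 3) in mature cells. Of 22 partner factors 9 were tested in that step, with Myrf, the myelin regulatory factor, called higher (3.22). The 7 called lower, beside 34.7% of all genes, included Olig2 (-2.58), Nfib (-1.70) and Olig1 (-1.60). In precursor-like against astrocyte-like cells 4 of 11 tested partners were called higher, beside 21% of all genes, among them Olig2 (4.25), Olig1 (4.13) and Nkx2-2 (3.91). In neuroblast-like against stem cell-like cells 3 of 6 tested partners were called higher, beside 20.4% of all genes, the nuclear factor I genes Nfix (2.20), Nfib (2.16) and Nfia (1.20).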

How the data were processed

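Single-cell libraries of mouse hippocampus (31 niche, 1 old, 1 Nestin-GFP) were aligned by the authors to mm10 with BWA 0.6.2-r126, per the submitters' processing notes. No source used here names the annotation or the counter. What the authors deposited are estimated counts, already corrected for saturation of the molecular identifiers, since inverting that correction gave whole numbers within 0.05 for at least 99.33% of values in each library. They were rounded to whole numbers. The pool of identifiers that fitted was 256 in the libraries of 96 wells and 4096 in those of 384 wells. The latter are library H of experiment 2, the libraries of experiment 5, the old and the Nestin-GFP library. Mitochondrial rows occurred only in the old and Nestin-GFP libraries and were left out of all totals. The effect of this difference in format was not tested. A table of all cells that the authors deposited holds a score per gene brought to a single depth and was used only to list its 1536 wells for 1 alternative. Raw molecule numbers from the inversion were another.

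The Sox genes, the gene lists and the classes' markers were chosen with earlier results of these data known. Wells with at least 1000 transcripts were kept. Clusters were drawn in Python 3.11.15 with leidenalg 0.10.2 (2000 variable genes among 11842 counted in all 7 sets of libraries, 30 components, 15 neighbours, resolution 1.0) and named from 16 marker sets. The tests were run on the second portion of the counts in R 4.3.3 with the quasi-likelihood test of edgeR 4.0.16 (filterByExpr, TMM), which was tested on simulated data, and DESeq2 1.42.0 was an alternative. No doublet caller was run, and the 139 cells with markers of a second class were left out in an alternative. No 2 cells had identical counts (0 pairs).

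Sox3, Sox17, Sox18 and the form CAGCTG were chosen after their values were seen. Experiment was a block because the labels number the experiments. Deviations of classes in the same experiment correlated at 0.009 (neuroblast-like against stem cell-like) to 0.493, which is under 0.1 in some pairs of 4 comparisons. The naming rule took all 10 Sox genes, at most 4 genes with the smallest p from each list, and the 3 genes most like each Sox gene, not all of which are reported here.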

Additional observations from a re-analysis of the deposited data

Results flagged for a closer look

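Of 49 groups of 4 or 5 experiments with at least 15 counts, 4 held a sample whose gap to the nearest other, divided by the range, passed Dixon's 95% limit, and chance alone flags about 1 in 20 groups. Sox10 in astrocyte-like cells stood at 953.1 CPM in experiment 2 in the second portion of the counts, where the other experiments lay between 23.7 and 102 CPM. Sox10 in blood and lymphoid-like cells stood at 438.3 CPM in experiment 2, beside 0 to 57.6 CPM elsewhere. Sox2 in microglia-like cells stood at 93.11 CPM in experiment 2, beside 8.86 to 29.4 CPM. Sox6 in Eomes-type progenitor-like cells stood at 287.6 CPM in experiment 1, from 4 counts in 6 cells, beside 65.5 to 101 CPM. The flagged Sox10 and Sox2 values all come from experiment 2.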

How the results depend on the processing

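No called difference changed direction under the alternatives run. Over the single Sox genes, 540 values under the alternatives kept their side of the threshold, 41 lost a call and 4 gained one. The number of Sox genes called did not move past 1.5 times in neuroblast-like against stem cell-like cells (4, leave-one-out 3 to 5), in precursor-like against astrocyte-like cells (6, leave-one-out 4 to 5) or in precursor-like against neuroblast-like cells (5, leave-one-out 4 to 5). In Eomes-type progenitor-like against neuroblast-like cells it was 3 (leave-one-out 2 to 3), 1 with DESeq2 and without mixed-marker cells, 5 with raw molecule numbers and 0 among cells with at least 2000 transcripts, where Sox1 was not tested. In mature against precursor-like cells it was 3 (leave-one-out 3 to 6), 5 with no filter and with at least 2000 transcripts, and 6 with the limit of 15 counts and with at least 10 cells per sum. In stem cell-like against astrocyte-like cells it was 0 (leave-one-out 0 to 1), 1 with raw molecule numbers and 2 with all counts tested. In neuroblast-like against astrocyte-like cells it was 4 (leave-one-out 4 to 6), 7 with no filter, with all counts and with at least 10 cells per sum, and 9 with the limit of 15 counts. The limit of 15 counts and its leave-one-out fits were added after the data were seen.

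Without the replicate block, that is with experiments not paired, the number was 0 in Eomes-type progenitor-like against neuroblast-like cells, 2 in mature against precursor-like, 0 in stem cell-like against astrocyte-like, 4 in neuroblast-like against astrocyte-like, 3 in neuroblast-like against stem cell-like, 5 in precursor-like against astrocyte-like and 4 in precursor-like against neuroblast-like cells. Counts over all genes depended more on the settings. In the order of that sentence they were 400 (45 to 703 over the alternatives), 535 (342 to 1356), 174 (52 to 296), 961 (557 to 2070), 239 (158 to 622), 749 (540 to 1646) and 369 (232 to 904). The cause of these shifts was not tested. Depth limits Sox21, Sox8, Sox5 and Sox1, which had few counts in most classes, and classes with 5 to 10 cells in an experiment.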

Other observations

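Cluster 10, led by haemoglobin genes and Ttr, was left unnamed, and its Sox10 level was 1881 CPM in experiment 2, 318 CPM in experiment 3 and 1090 CPM in the old library. The fibroblast-like cells, present in experiment 4, held 294 CPM of Sox11 and 55.1 CPM of Sox10. Endothelial-like cells held Sox9 at 209 and 238 CPM in experiments 2 and 5, from 5 and 2 counts.

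Wells under 500 transcripts held Sox11 at 1962 CPM in experiment 4, 1248 in experiment 2 and 20.3 in experiment 5 (1 count), and Sox9 at 324 to 673 CPM in the niche experiments.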
